A study of Homo sapiens with 24 samples.

Results

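Lysosomes are the acidic compartments in which cells break down proteins, glycans, lipids and nucleic acids delivered by endocytosis and autophagy. Their soluble enzymes, the acid hydrolases, are made in the endoplasmic reticulum and mostly carried to the lysosome on mannose 6-phosphate receptors, and their membrane holds heavily glycosylated proteins such as LAMP1 and LAMP2, ion channels and exporters of breakdown products. Many of these genes carry an E-box related motif in their promoters, which factors of the MiT/TFE family such as TFEB and TFE3 can bind. The genes described here are 48 lysosomal hydrolases and membrane proteins, taken by symbol from the 48162 genes of an RNA-seq count table of PPC1 cells, a prostate cancer cell line. The symbols matched 49 protein-coding entries, because CLN3 was listed at 2 overlapping positions.

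The question was how parental PPC1 cells and radiation-induced polyploid giant cancer cells (PGCC) differ, and whether short inhibition of acid ceramidase, a lysosomal enzyme encoded by ASAH1, alters expression in either. There were 4 conditions with 6 libraries each. Parental cells received no radiation and were not filtered, and were either left without drug or exposed to 5 µM of the acid ceramidase inhibitor LCL521 for 5 hours before harvest on day 5. PGCC were the same cells given 8 Gy on day 2, harvested on day 5 as the fraction held back by a 20 micron strainer, with no drug or with the same LCL521 exposure. Radiation, the giant-cell state and straining differed together between PGCC and parental cells and cannot be told apart, and in bulk RNA fewer cells of a type and less RNA per cell cannot be told apart either. The labels name no vehicle and do not say that the libraries came from separate cultures, so p-values measure the spread between these libraries, which may be technical.

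Each library held 14835246 to 19906601 counts. Libraries of replicates 4 and 5 lay apart from the other replicates in all 4 conditions along the second principal component, which held 16.5% of the variance, against 55.9% for the first. Of 7 epithelial markers, KRT8, KRT18, KRT19 and CLDN4 were abundant in every library, whereas CLDN7 was nearly absent, with at most 4 counts in any library. Values of EPCAM and CDH1 are not given here. Among luminal prostate markers, KLK3, KLK2 and FOLH1 had 0 counts in all 24 libraries and TMPRSS2 had at most 2 counts, so these defining markers were absent or nearly so, whereas HOXB13 was abundant, at 570 to 882 CPM (a count divided by its library size, scaled by TMM factors, and set to a common library size) in parental cells and 307 to 548 in PGCC. The summed level of the 7 epithelial markers was 1110 to 1460 CPM in parental cells and 1470 to 2110 in PGCC. The summed level of 8 genes of dividing cells was 156 to 481 CPM in parental cells and 1140 to 1390 in PGCC. That of 7 fibroblast genes was 53.5 to 134 in parental cells and 86.6 to 213 in PGCC. Their part in the differences below was not tested.

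The 48 genes together took a small share of the transcriptome, and that share was larger in PGCC. They held 0.341% to 0.362% of all counts in parental cells (median 0.351%) and 0.417% to 0.476% in PGCC (median 0.447%). With LCL521 the shares were 0.344% to 0.364% in parental cells and 0.42% to 0.466% in PGCC. The parental and PGCC libraries did not overlap. CTSB alone made up part of this gap, and without it the shares were 0.29% to 0.303% in parental cells and 0.343% to 0.369% in PGCC, which still did not overlap.

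Levels between genes were compared as CPM per kilobase of gene model. CD63, a tetraspanin of late endosomes and lysosomes, had the highest level in parental cells, 381 ± 38.6 CPM per kilobase (SD, n = 6). It was followed by CTSB, the cysteine protease cathepsin B, at 144 ± 24.2 and by CTSA, the serine carboxypeptidase that protects neuraminidase and beta-galactosidase, at 98.9 ± 9.63. Every parental library of CD63 lay above every library of CTSB, but the libraries of CTSB and CTSA overlapped. PPT1, a thioesterase that removes fatty acids from proteins, came next at 78.3 ± 7.77. At the low end of the genes tested, MCOLN3, a mucolipin calcium channel, reached 0.836 ± 0.149 and CTSK, the collagen-degrading cathepsin K, 0.862 ± 0.249, and their libraries overlapped. In PGCC the first 3 genes kept that order, and SGSH moved from rank 25 to 31, ARSG from rank 36 to 40, GLA from rank 20 to 12 and GM2A from rank 29 to 21.

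**Figure D1:**
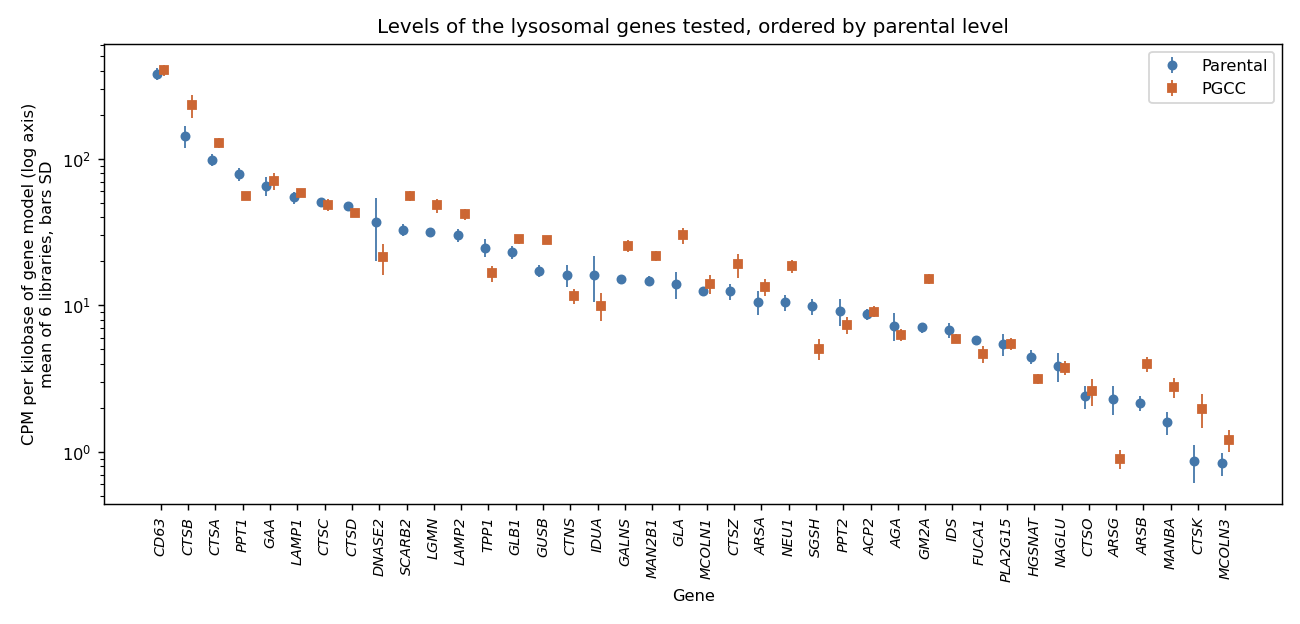
Mean level of the 40 genes tested (CPM per kilobase of gene model, log axis; bars are the SD of 6 libraries) in parental cells (circles) and PGCC (squares), ordered from left to right by the parental level. CD63 stood highest in both at 381 and 402 CPM per kilobase, and the squares of GM2A, GLA, ARSB and CTSK stood well above their circles while those of ARSG and SGSH stood below.

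Of the 48 genes, 8 had too few counts to be tested in parental cells against PGCC. HEXA, the alpha subunit of beta-hexosaminidase, had 0 counts in all 24 libraries, which for 3 counts allows a level of up to 0.15 to 0.208 CPM in a library (counting error only). An overlapping readthrough gene on the same strand covered 98.5% of its span and was also at 0. For CD68, a glycoprotein typical of macrophage lysosomes, 1 library had 2 counts and all others had 0, and another same-strand gene covered 96.7% of its span. The levels of both genes are uncertain, because counting can leave out reads that fall on more than one gene. The same holds for CLN3, a lysosomal membrane protein lost in juvenile Batten disease, whose entries overlap each other and had 0 and 1 to 12 counts. LAMP3, a LAMP relative of dendritic cells, and CTSF, cathepsin F, had at most 2 counts in any library. ACP5, the tartrate-resistant phosphatase of osteoclasts, had 0 to 15 counts and lies wholly inside ZNF627 on the other strand.

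Cathepsin S and cathepsin H stood out among these rarely counted genes. CTSS, a cysteine protease known from antigen-presenting cells, had 0 to 3 counts in the parental libraries (median 1.5) and 7 to 32 in PGCC (median 21.5). With LCL521 it had 0 to 4 counts in parental cells (median 2) and 5 to 25 in PGCC (median 15.5). The parental and PGCC libraries did not overlap, with or without LCL521. CTSH, an aminopeptidase, had 0 to 4 counts in parental cells (median 1.5) and 3 to 15 in PGCC (median 9), and these libraries overlapped. Both entered the comparison only under other filters or other sets of libraries, which let a gene in through the group where it is high, so no test is read from them. The summed level of 12 markers of monocytes, macrophages and dendritic cells was 0.754 to 3.09 CPM in parental cells and 3.68 to 6.3 in PGCC. Of these markers, PTPRC was the most abundant at up to 4.03 CPM. FCER1G had 1 to 3 counts in the parental libraries and 2 to 10 in PGCC. AIF1, CCR7, CD163, LST1 and TYROBP were at or under 3 counts in every library. CD163, AIF1 and TYROBP were at 0 in all 6 PGCC libraries. Values of CD14, CSF1R, ITGAM, LYZ and SPI1 are not given here. The part of the 12 markers in CTSS was not tested.

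In PGCC against parental cells, the quasi-likelihood test of edgeR, adjusted over all genes by Benjamini-Hochberg, called 27 of the 40 genes tested. The level was higher in PGCC for 18 (45%), where 23.1% of all 13812 genes tested were higher, and lower for 9 (22.5%), where 24.3% of all genes were lower. The share of lower calls was thus close to that of all genes. The median log2 fold change was 0.12 over the 40 genes and −0.03 over all genes. The median size of the change, whatever its direction, was 0.49 for the 40 genes and 0.37 for all genes on the log2 scale. These genes were also better measured than most, with a median level of 42.3 CPM against 25 CPM, and each of the 40 had at least 17 counts in every library. For 15 genes every PGCC library lay above every parental library, and for 6 every PGCC library lay below, where 13.9% and 12.9% of all genes did so. Beyond these genes, 13 did not pass the threshold, with log2 fold changes between −0.31 and 0.18.

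**Figure D2:**
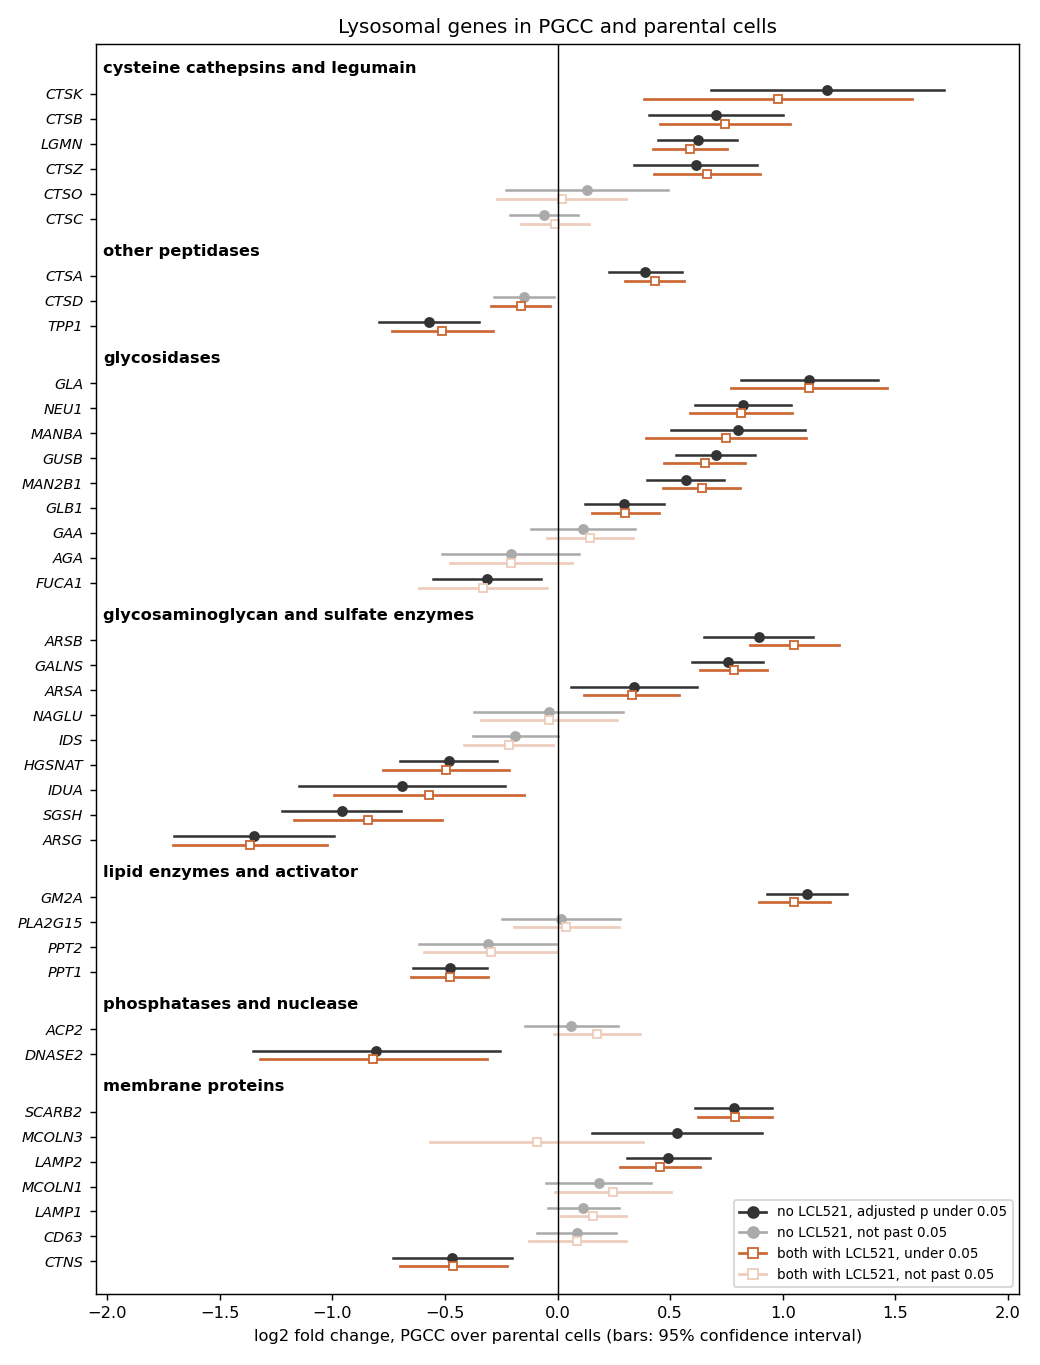
Log2 fold change of PGCC over parental cells for each of the 40 genes tested, grouped by role, without LCL521 (filled circles) and with both populations exposed to LCL521 (open squares); bars are 95% confidence intervals and pale marks did not pass an adjusted p of 0.05. Cysteine cathepsins and glycosidases lie mostly to the right of 0, glycosaminoglycan enzymes lie on both sides, and MCOLN3 alone changes side between the circle and the square.

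Cysteine cathepsins and legumain, the proteases of the lysosome that use a cysteine in catalysis, rose or did not pass. Of 9 genes, 6 were tested, 4 were higher in PGCC and none was lower. CTSK, at chr1:150768684-150780799 (minus strand, build hg19), ranged from 0.986 to 2.03 CPM in parental cells (median 1.36) and from 2.13 to 4.79 in PGCC (median 3.35). Its log2 fold change was 1.20 ± 0.24 (SE, adjusted p = 0.00101). All PGCC libraries lay above all parental ones. With replicates 4 and 5 alone the log2 fold change was 0.70 (adjusted p = 0.0787). Of 4 osteoclast markers, OCSTAMP was at 0 and CALCR at or under 1 count in every library. SIGLEC15 was counted in every library, at 0.755 to 2.51 CPM in parental cells and 0.501 to 1.85 in PGCC. The sum of all 4 markers was 0.755 to 2.51 CPM in parental cells and 0.78 to 2.41 in PGCC. Values of DCSTAMP are not given here.

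CTSB was the most abundant of the cathepsins and rose 1.63-fold. At chr8:11700033-11726957 (minus strand), it ranged from 392 to 640 CPM in parental cells (median 569) and from 662 to 1076 in PGCC (median 923). The log2 fold change was 0.70 ± 0.14 (adjusted p = 0.000887), and the libraries did not overlap. LGMN, the asparaginyl endopeptidase legumain that processes other cathepsins, rose by a log2 fold change of 0.62 and CTSZ, the carboxypeptidase cathepsin Z, by 0.61. CTSC, the dipeptidyl peptidase that activates granule serine proteases, had a log2 fold change of −0.06 (95% interval −0.21 to 0.09) and CTSO, cathepsin O, one of 0.13 (−0.23 to 0.49). Neither passed the threshold.

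The 3 peptidases of other kinds went separate ways. CTSA rose by a log2 fold change of 0.39. TPP1, the tripeptidyl peptidase lost in a childhood form of neuronal ceroid lipofuscinosis, fell. It lies at chr11:6634000-6640692 (minus strand) and ranged from 78.7 to 111 CPM in parental cells (median 84.3) and from 53.6 to 72.9 in PGCC (median 56.5). PGCC differed from parental cells by a log2 fold change of −0.57 ± 0.10 (adjusted p = 0.000446), with no overlap between the groups. CTSD, the aspartic protease cathepsin D, had a log2 fold change of −0.15 with an adjusted p of 0.0641.

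Glycosidases, which trim sugars from glycoproteins and glycolipids, mostly rose: of 10 genes, 9 were tested, 6 were higher in PGCC and 1 was lower. GLA, the alpha-galactosidase lacking in Fabry disease, had the largest change. It lies at chrX:100652791-100662913 (minus strand) and ranged from 13.4 to 22.8 CPM in parental cells (median 19.6) and from 34.4 to 48 in PGCC (median 39.3). Its log2 fold change was 1.12 ± 0.14 (adjusted p = 2.38e-05), and even the lowest PGCC library lay above the highest parental one.

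NEU1, the sialidase that removes terminal sialic acids, lies at chr6:31825436-31830683 (minus strand). It ranged from 39.1 to 57.8 CPM in parental cells (median 49) and from 76.3 to 96.3 in PGCC (median 84.2). The log2 fold change was 0.82 ± 0.10 (adjusted p = 1.54e-05), with no overlap. MANBA, beta-mannosidase, at chr4:103552660-103682151 (minus strand), ranged from 9.56 to 14.6 CPM in parental cells (median 11.3) and from 16.3 to 24 in PGCC (median 21.6). Its log2 fold change was 0.80 ± 0.14 (adjusted p = 0.000311), and the groups did not overlap.

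GUSB, beta-glucuronidase, which also takes part in the breakdown of glycosaminoglycans, lies at chr7:65425671-65447301 (minus strand). It ranged from 38.3 to 50 CPM in parental cells (median 43) and from 66 to 79.2 in PGCC (median 70.8). This was a log2 fold change of 0.70 ± 0.08 (adjusted p = 1.18e-05), again without overlap. MAN2B1, the acidic alpha-mannosidase, rose by a log2 fold change of 0.57 and GLB1, the beta-galactosidase whose activity is used as a marker of senescence, by 0.30. The GLB1 call was lost with gene length correction (0.22, adjusted p = 0.0682) and with replicates 4 and 5 alone (0.24, adjusted p = 0.0982). GAA, the acid alpha-glucosidase of glycogen breakdown, had a log2 fold change of 0.11 and AGA, aspartylglucosaminidase, one of −0.21, and neither passed.

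FUCA1, alpha-fucosidase, was the glycosidase that was lower. At chr1:24171567-24194784 (minus strand), it ranged from 11 to 13.1 CPM in parental cells (median 11.8) and from 7.94 to 11 in PGCC (median 9.77). The log2 fold change was −0.31 ± 0.11 (adjusted p = 0.0329). The groups were separated by a narrow margin, the lowest parental and the highest PGCC library both standing near 11 CPM, and the call was lost without replicate 1, 2, 3 or 6, where the log2 fold change was −0.26 to −0.35. With replicates 4 and 5 alone it was −0.09 (adjusted p = 0.671). The call was also lost with library totals (−0.22, adjusted p = 0.139), with no filter on low counts (adjusted p = 0.0858) and with at least 10 counts required in every library (adjusted p = 0.0567).

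The 9 enzymes of glycosaminoglycans and sulfate groups divided in direction, with 3 higher, 4 lower and 2 not past the threshold. ARSB, arylsulfatase B, which desulfates dermatan and chondroitin sulfate, ranged from 9.63 to 13.3 CPM in parental cells (median 11.7) and from 17.5 to 23.9 in PGCC (median 21.4). It lies at chr5:78073032-78281910 (minus strand), and its log2 fold change was 0.89 ± 0.11 (adjusted p = 2.25e-05). GALNS, which acts on keratan and chondroitin sulfate, lies at chr16:88880142-88923378 (minus strand). It ranged from 82.6 to 94.8 CPM in parental cells (median 84.6) and from 129 to 162 in PGCC (median 146), a log2 fold change of 0.76 ± 0.07 (adjusted p = 2.14e-06). Neither gene's groups overlapped. ARSA, the sulfatidase lacking in metachromatic leukodystrophy, was higher by 0.34 on the log2 scale (adjusted p = 0.0453), a call lost without replicate 1, 2, 3 or 5 (adjusted p 0.077 to 0.146).

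The genes that fell belong to heparan sulfate breakdown. ARSG, a sulfatase of that pathway, showed the largest fall of all 40 genes. At chr17:66255323-66418872 (plus strand), it ranged from 7.48 to 14.5 CPM in parental cells (median 10.4) and from 3.57 to 5.11 in PGCC (median 3.99). Its log2 fold change was −1.35 ± 0.17 (adjusted p = 1.7e-05), with no overlap. SGSH, the sulfamidase lacking in Sanfilippo syndrome type A, at chr17:78180515-78194722 (minus strand), ranged from 41.7 to 60.8 CPM in parental cells (median 56.5) and from 21.6 to 34.2 in PGCC (median 27.1). PGCC differed from parental cells by a log2 fold change of −0.96 ± 0.12 (adjusted p = 2.54e-05), and no libraries overlapped.

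IDUA, the iduronidase of heparan and dermatan sulfate, was variable. It lies at chr4:980785-998316 (plus strand) and ranged from 25 to 52.9 CPM in parental cells (median 31.2) and from 14.5 to 26.3 in PGCC (median 24.4). The log2 fold change was −0.69 ± 0.21 (adjusted p = 0.0162), and the groups overlapped. An opposite-strand gene, SLC26A1, covers 36.8% of the IDUA span, and the strand setting of the counts is not given in the sources used here. HGSNAT, the membrane acetyltransferase of the pathway, at chr8:42995556-43057998 (plus strand), ranged from 20.1 to 26 CPM in parental cells (median 24.4) and from 15 to 18.3 in PGCC (median 16.9). Its log2 fold change was −0.48 ± 0.10 (adjusted p = 0.00128), without overlap. With replicates 4 and 5 alone, the log2 fold change was −0.57 for IDUA (adjusted p = 0.0746) and −0.35 for HGSNAT (adjusted p = 0.0597).

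NAGLU, the remaining heparan-specific enzyme of the list, had a log2 fold change of −0.04 (95% interval −0.37 to 0.29) and IDS, the iduronate sulfatase, one of −0.19 (−0.38 to 0.0014). Another listed gene on the same strand covers 90% or more of the NAGLU span, so the level of NAGLU is uncertain. Of the 6 genes ARSG, SGSH, IDUA, HGSNAT, NAGLU and IDS, 4 were thus lower, 2 did not pass and none was higher. This subset was drawn after the values were seen and carries no test. GUSB, which also acts on heparan sulfate, rose.

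Among 4 genes of lipid breakdown, 1 rose and 1 fell. GM2A, the activator protein that presents the ganglioside GM2 to beta-hexosaminidase, rose with little spread. At chr5:150591711-150650001 (plus strand), it ranged from 24.4 to 30.6 CPM in parental cells (median 27.6) and from 51.8 to 65.5 in PGCC (median 59.9). This was a log2 fold change of 1.11 ± 0.08 (adjusted p = 2.38e-07), and the groups did not overlap. PPT1, at chr1:40538379-40563375 (minus strand), ranged from 185 to 239 CPM in parental cells (median 215) and from 145 to 165 in PGCC (median 150). The log2 fold change was −0.48 ± 0.08 (adjusted p = 0.000159), also without overlap. PPT2, a related thioesterase, stood at −0.31 on the log2 scale (adjusted p = 0.0837, or 0.0397 with a block for the replicate number), and 96.1% of its span is shared with EGFL8 on the same strand. PLA2G15, the lysosomal phospholipase A2, had one of 0.02 (95% interval −0.25 to 0.28).

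DNASE2, the acid nuclease that degrades DNA taken up into lysosomes, fell, but by an amount that depended on the replicates. It lies at chr19:12986025-12992282 (minus strand) and ranged from 45.6 to 120 CPM in parental cells (median 54) and from 30.2 to 58.4 in PGCC (median 40.4). PGCC differed from parental cells by a log2 fold change of −0.80 ± 0.26 (adjusted p = 0.0183), and the groups overlapped. Parental libraries 4 and 5 held 110 and 120 CPM and the other parental libraries 45.6 to 54.5. The PGCC library was lower in 6 of 6 pairs of the same replicate number, by a mean of 0.47 on the log2 scale in replicates 1, 2, 3 and 6 and of 1.24 in replicates 4 and 5. The call was lost without replicate 5 (log2 fold change −0.58, adjusted p = 0.0682) and held without replicates 4 and 5 together (−0.43, adjusted p = 0.00966). ACP2, the lysosomal acid phosphatase, had a log2 fold change of 0.06 (95% interval −0.14 to 0.27).

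Of 10 membrane proteins, 7 were tested, 3 were higher in PGCC and 1 was lower. SCARB2, the receptor LIMP-2 that carries glucocerebrosidase to the lysosome, lies at chr4:77079890-77135046 (minus strand). It ranged from 129 to 172 CPM in parental cells (median 158) and from 249 to 298 in PGCC (median 257), a log2 fold change of 0.78 ± 0.08 (adjusted p = 3.03e-06) with no overlap. LAMP2, a structural protein of the membrane that also serves chaperone-mediated autophagy, rose by a log2 fold change of 0.49. Its relative LAMP1 had a log2 fold change of 0.11 (95% interval −0.04 to 0.27), CD63 one of 0.08 (−0.09 to 0.26) and the calcium channel MCOLN1 one of 0.18 (−0.05 to 0.41), and none of these passed. MCOLN3 was higher by 0.53 on the log2 scale (adjusted p = 0.0228), and this call was lost without replicate 2, 3 or 5 (adjusted p 0.0509 to 0.0715). CTNS, the cystine exporter lacking in cystinosis, fell. At chr17:3539762-3564836 (plus strand), it ranged from 36.5 to 60.3 CPM in parental cells (median 45.2) and from 27.6 to 37.5 in PGCC (median 34.6), a log2 fold change of −0.47 ± 0.12 (adjusted p = 0.0064), with overlapping groups.

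**Figure D3:**
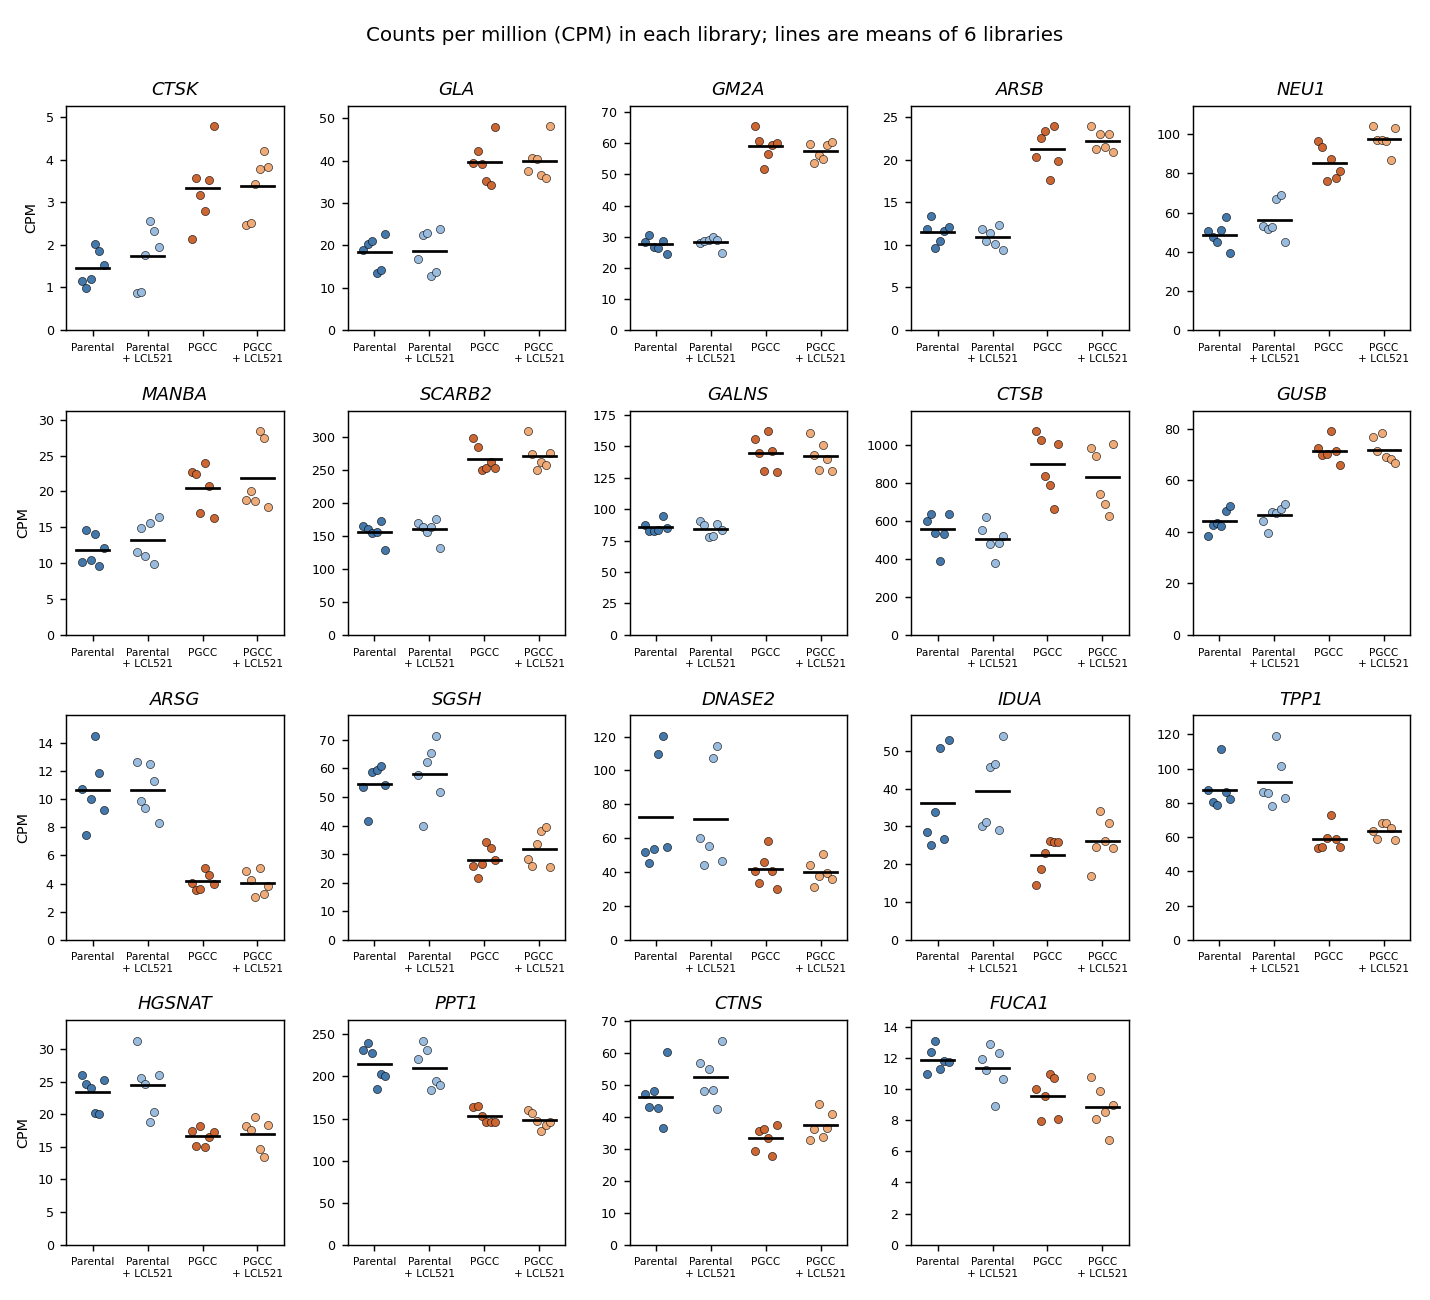
CPM of the 10 genes with the largest rises and the 9 genes that fell in PGCC, with 1 point for each library, 6 libraries in each of the 4 conditions, and a line at the mean; every axis starts at 0. For the 10 genes that rose, the PGCC points lie above the parental ones with and without LCL521, except that those of CTSK overlap with LCL521, while for DNASE2 and IDUA the parental points spread widely and reach into the range of PGCC.

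The promoters of the genes were searched for the motif known to be bound by MiT/TFE factors. Promoters, from 250 bases before to 50 bases after the transcription start, were taken from RefSeq (GRCh38.p14) and matched 35 of the 48 genes. ARSA, CTSB, CTSK, CTSO, CTSS, HEXA, HGSNAT, LAMP2, LAMP3, LGMN, MANBA, NAGLU and SGSH had no entry. The motif TCACGTG, on either strand (CACGTGA on the other), was present in 10 of the 35 genes (28.6%) and in 1226 of all 27305 genes of the table (4.49%). The shorter CACGTG core, which the motif contains, was present in 12 of the 35 genes (34.3%) and in 8.77% of all genes. The 10 genes were ARSB, CLN3, CTSA, CTSD, CTSF, GAA, GALNS, LAMP1, MCOLN1 and NEU1. Of the genes called higher in PGCC, 4 of 12 with a promoter held the motif, of those called lower 0 of 7, and of those not past the threshold 4 of 11. These counts are a description and were not tested. Many lysosomal genes were already known to carry such a motif, so its higher share among them is not a result of these data. A match is a string of letters and not a shown binding site.

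The 3 sequences below are the 250 bases before the start of the genes that both held the motif and were among the 10 largest rises, 5′ to 3′ on the gene's own strand, with the motif in capitals. They show how differently the same letters are placed. ARSB (GRCh38.p14, chr5:78985959-78986208, minus strand) holds 1 match that begins 160 bases before the start, NEU1 (chr6:31862822-31863071, minus strand) holds 1 match at 127 bases, and GALNS (chr16:88856948-88857197, minus strand) holds 1 at 175 bases that extends by 1 base to read the same on both strands and another at 33 bases.
ARSB: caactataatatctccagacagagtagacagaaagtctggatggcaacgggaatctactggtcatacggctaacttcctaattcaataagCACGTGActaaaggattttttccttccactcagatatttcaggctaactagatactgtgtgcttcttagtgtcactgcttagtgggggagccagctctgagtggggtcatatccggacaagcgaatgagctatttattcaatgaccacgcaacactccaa
NEU1: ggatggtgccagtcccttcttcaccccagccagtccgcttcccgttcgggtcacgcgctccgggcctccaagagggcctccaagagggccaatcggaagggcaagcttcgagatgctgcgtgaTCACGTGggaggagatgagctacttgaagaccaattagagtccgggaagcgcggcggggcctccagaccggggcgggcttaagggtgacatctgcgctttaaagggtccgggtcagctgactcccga
GALNS: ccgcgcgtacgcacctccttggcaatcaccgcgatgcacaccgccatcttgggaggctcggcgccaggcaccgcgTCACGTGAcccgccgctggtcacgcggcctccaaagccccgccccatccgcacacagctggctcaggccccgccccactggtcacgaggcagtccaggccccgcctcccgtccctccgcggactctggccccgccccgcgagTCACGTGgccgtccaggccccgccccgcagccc

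Among the factors themselves, TFEB was lower in PGCC. TFEB ranged from 3.02 to 7.2 CPM in parental cells (median 5.82) and from 1.31 to 2.1 in PGCC (median 1.81), a log2 fold change of −1.59 ± 0.22 (adjusted p = 5.16e-05). TFE3, the most abundant of the 4, ranged from 67.9 to 82.9 CPM in parental cells and from 68.6 to 88 in PGCC, and its log2 fold change was 0.10 (95% interval −0.09 to 0.29). TFEC had 0 to 14 counts in the parental libraries and 35 to 71 in PGCC, which did not overlap, but it entered the comparison through PGCC, so no test is read from it. MITF did not pass the threshold. Messenger levels say nothing of where these proteins are in the cell.

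Other genes of the pathway were counted by role, beside 23.1% of all genes higher and 24.3% lower. Of 17 other hydrolases and activators tested, 6 were higher in PGCC and 2 were lower. The largest rise was that of GALC, the galactosylceramidase, with a log2 fold change of 1.74 ± 0.28 (adjusted p = 0.000181), and the largest fall that of DPP7, a dipeptidyl peptidase, with −0.52 ± 0.08 (adjusted p = 0.000132). ASAH1, the target of LCL521, was the other gene that was lower, with 59.8 to 72 CPM in parental cells (median 65.3) and 46.2 to 56.3 in PGCC (median 47.8), a log2 fold change of −0.40 ± 0.07 (adjusted p = 0.000596) and no overlap. Of 25 other membrane and soluble proteins tested, 7 were higher, led by the cholesterol-binding protein NPC2 (1.15 ± 0.13), and 7 lower, led by the amino acid transporter SLC36A1 (−1.07 ± 0.18). Of 27 genes that modify and sort lysosomal enzymes, 4 were higher, led by the sorting receptor SORL1 (0.79 ± 0.15), and 5 lower, led by the adaptor subunit AP3S2 (−0.81 ± 0.20).

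The comparison of PGCC with parental cells was made again in the libraries exposed to LCL521. It shares no library with the comparison above, but it is not an independent repeat. Libraries of the same replicate number with and without LCL521 deviated together from their group means. The correlation of these deviations was 0.458 to 0.813 in parental cells and 0.385 to 0.619 in PGCC. Of the 40 genes tested, 17 were higher (25% of all 13818 genes) and 9 lower (23.9%). Of these, 17 had also been higher and 8 lower without the drug. With the replicate block, 19 were higher and 11 lower, the added genes being LAMP1 (adjusted p = 0.0391), MCOLN1 (0.0269), IDS (0.0178) and FUCA1 (0.042). The log2 fold changes had the same sign in 39 of 40 genes (Pearson r = 0.981 across genes, which share libraries and are not independent). The exception was MCOLN3, with a log2 fold change of 0.53 without LCL521 and −0.09 with it, the widest gap of all. The next was that of CTSK, with 1.20 and 0.98. In the main fit CTSD passed only with the drug (−0.16, adjusted p = 0.0395) and FUCA1 only without it (−0.33, adjusted p = 0.0506 with it), values that lie close to each other. Without the drug, CTSD was called by DESeq2 (−0.14, adjusted p = 0.0285) and by edgeR in 1 fit of all libraries (−0.16, adjusted p = 0.0169). With the drug, DESeq2 called FUCA1 (−0.35, adjusted p = 0.0272). The main-fit call of CTSD with LCL521 was lost without replicate 1, 3, 4, 5 or 6 (adjusted p 0.0538 to 0.124), that of IDUA without replicate 4 or 6 (adjusted p 0.0747 and 0.0886), and that of ARSA without replicate 3 (adjusted p = 0.0626).

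The effect of LCL521 itself was compared within each population. In parental cells none of the 40 genes tested passed (0% of all 13277 genes), 1 had an unadjusted p under 0.05, and DESeq2 also called none. In PGCC none of the 41 tested passed (0.00707% of all 14151 genes), again with 1 at an unadjusted p under 0.05 and none called by DESeq2. Libraries of the same replicate number deviated together in every comparison, and once replicate number was added to the fit as a block, 2 genes were higher in parental cells (0.52% of all genes), NEU1 and MCOLN3, and 1 in PGCC (1.08% of all genes), NEU1.

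NEU1 rose in both populations in 6 of 6 pairs. In parental cells it ranged from 39.1 to 57.8 CPM (median 49) without the drug and from 45 to 69 with it (median 52.8). The blocked log2 fold change was 0.22 ± 0.05 (adjusted p = 0.0408), against an adjusted p of 1 without the block. In PGCC it ranged from 76.3 to 96.3 CPM (median 84.2) without LCL521 and from 86.8 to 104 with it (median 97). The blocked log2 fold change was 0.20 ± 0.04 (adjusted p = 0.012), again against 1 without the block. The groups overlapped in both populations, and the change was smaller than the difference between the populations. With replicates 4 and 5 left out under the block, the call was lost in parental cells (0.17, adjusted p = 0.343) and held in PGCC (0.21, adjusted p = 0.0436).

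MCOLN3 rose with LCL521 in parental cells in 6 of 6 pairs. It lies at chr1:85483765-85514182 (minus strand, hg19), and its level without the drug was 2.07 to 3.12 CPM (median 2.32) and with it 2.95 to 5.65 (median 3.72). The blocked log2 fold change was 0.71 ± 0.13 (adjusted p = 0.0171). DESeq2 with the same block gave a log2 fold change of 0.71 and no adjusted p for this gene. Without the block its adjusted p was 1, and with replicates 4 and 5 left out under the block the log2 fold change was 0.68 with an adjusted p of 0.177. In PGCC it ranged from 2.88 to 4.4 CPM (median 3.5) without LCL521 and from 2.87 to 4.99 with it (median 3.62), and these groups overlapped. The blocked log2 fold change there was 0.09 (95% interval −0.22 to 0.40, adjusted p = 0.847).

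The interaction of LCL521 and population was tested directly, and no gene passed among the 41 tested (0% of all 14555 genes, with 1 of the 41 at an unadjusted p under 0.05 and none called by DESeq2). For MCOLN3 the log2 fold change with LCL521 was lower in PGCC than in parental cells, a difference of −0.64 (95% interval −1.19 to −0.08, adjusted p = 1). Within PGCC the pairs divided by replicate. The log2 difference was 0.60 in replicate 4 and 0.63 in replicate 5, and averaged −0.21 in replicates 1, 2, 3 and 6. The whole of MCOLN3 lies within WDR63 on the other strand, which had at most 20 counts in any library. MCOLN3 had 36 to 48 counts in the parental libraries without LCL521 and at most 93 in any library. The part of WDR63 in these counts was not tested.

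In parental cells 6 of the 40 genes were higher and 3 lower with LCL521 in all 6 pairs, and in PGCC 3 of the 41 were higher and 3 lower. The share of all genes that did so was not computed, so nothing about these genes as a group is read from these counts. CTSB and CTSC were lower in 6 of 6 pairs in both populations, and they are named here after their values were seen. For CTSC the blocked log2 fold change was −0.11 in parental cells (adjusted p = 0.205) and −0.08 in PGCC (adjusted p = 0.218). For CTSB it was −0.12 ± 0.04 in parental cells (adjusted p = 0.188) and −0.11 ± 0.03 in PGCC (adjusted p = 0.0659). For CTSB, DESeq2 with the same block gave an adjusted p of 0.0201 in PGCC and 0.115 in parental cells. CTNS rose by 0.19 in parental cells and 0.17 in PGCC in the blocked fit, higher in 6 of 6 pairs each time, with adjusted p values of 0.0528 and 0.122. ASAH1, the drug's target, had blocked log2 fold changes of 0.09 in parental cells (95% interval −0.01 to 0.19) and 0.04 in PGCC (−0.05 to 0.13). Among the other lysosomal genes, NPC1, the membrane cholesterol transporter, was higher with the block in parental cells (0.44 ± 0.06, adjusted p = 0.00689) and in PGCC (0.30 ± 0.04, adjusted p = 4.2e-05), as was the chloride exchanger CLCN7 (0.17 in each), and TMEM55B passed in PGCC (0.26). These 3 genes were named after their values were seen, and none passed without the block (adjusted p of 1 each).

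**Figure D4:**
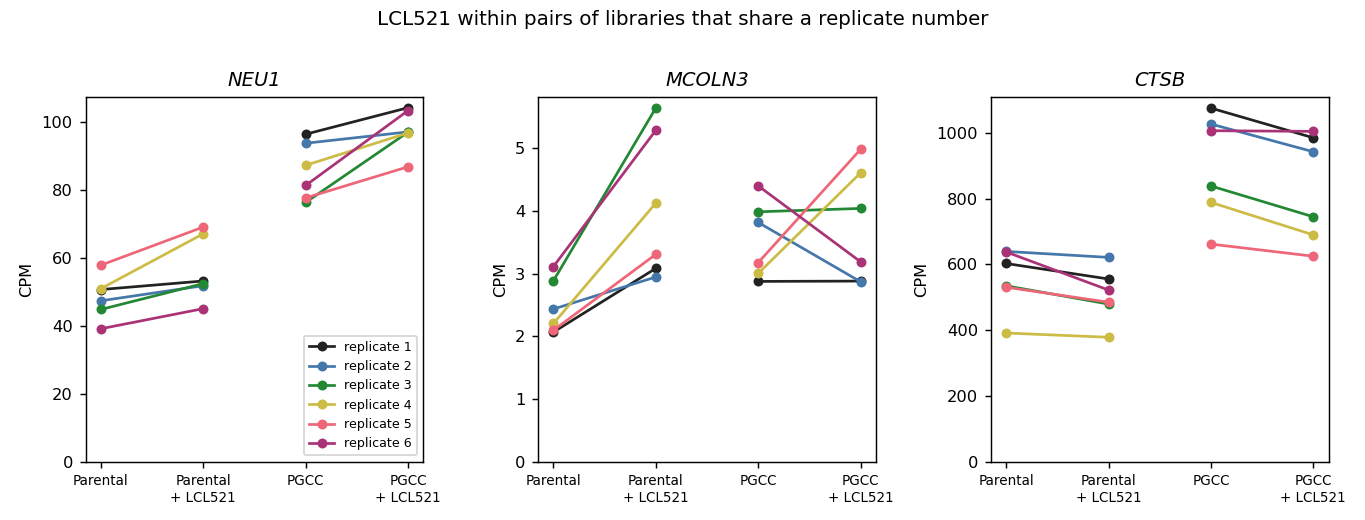
CPM of NEU1, MCOLN3 and CTSB without and with LCL521, with a line for each pair of libraries of the same replicate number, 6 pairs in parental cells and 6 in PGCC; every axis starts at 0. All NEU1 lines rise and all CTSB lines fall, while the MCOLN3 lines rise in parental cells and go both ways in PGCC.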

How the data were processed

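Total RNA of 24 PPC1 libraries, 6 in each of 4 conditions, was sequenced. The authors deposited 1 table of raw read counts per gene with gene symbol, type, position on hg19 and gene length. The submitters' processing notes list the hg19 build and the tools CASAVA, STAR, HTSeq and DESeq2, and the annotation release, strand setting and counting mode are not given in the sources used here. All 24 columns were used. Reads on overlapping genes may be left out or assigned to a partner, and 28 of the 48 genes overlap another listed gene.

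From the deposited counts, each comparison was fitted over all genes with edgeR 4.0.16 in R 4.3.3 (quasi-likelihood test, TMM factors, filterByExpr with a minimum count of 10 and total of 15) on the libraries compared, and the interaction on all 24. Two-sided p-values were adjusted by Benjamini-Hochberg over all genes tested, with a threshold of 0.05. Intervals are 95% and SE are those of the log2 fold change. CPM used TMM-scaled library sizes, and levels between genes were divided by gene length. The fits were run on simulated counts with planted changes larger than those described here for LCL521. That run does not show how well changes as small as those under LCL521 are found.

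Samples were grouped by their labels. Libraries of the same replicate number deviated together in every pair (correlation of deviations from the group means 0.237 to 0.412 for PGCC against parental cells, 0.171 to 0.444 for the same with LCL521, 0.458 to 0.813 for LCL521 in parental cells and 0.385 to 0.619 in PGCC), so values with the replicate number as a block are given where they change a call. Alternatives were DESeq2 1.42.0, limma-voom (limma 3.58.1), RLE factors, library totals, 2 other filters, gene length correction, 1 fit of all libraries and leaving out replicates. Full values are given for the 10 largest rises and up to 10 largest falls past the threshold in PGCC, and for genes past it with or without the block under LCL521. In the other lysosomal lists, the largest rise and fall past the threshold are named. The 48 genes and all lists were chosen with earlier results of these data known.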

Additional observations from a re-analysis of the deposited data

Results flagged for a closer look

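In each of the 40 genes tested and each condition, the highest and lowest of the 6 libraries were compared with the rest by Dixon's criterion, the gap to the nearest library over the whole range. Of 160 such groups, 8 held a library that stood apart, where chance gives about 1 in 20. TPP1 stood high in replicate 4 of the parental cells, at 111 CPM against 78.7 to 87.3 in the others, and in replicate 4 of PGCC, at 72.9 against 53.6 to 59.3. CTSC stood high in replicate 1 of PGCC, at 352 CPM against 275 to 295, and in replicate 1 of PGCC with LCL521, at 335 against 264 to 285. SGSH stood low in parental replicate 2, at 41.7 CPM against 53.4 to 60.8. GM2A stood low in replicate 6 of parental cells with LCL521, at 24.9 CPM against 28 to 29.8. In PGCC with LCL521, ACP2 stood low in replicate 6, at 17.7 CPM against 19.7 to 21, and PPT2 in replicate 1, at 13.5 against 16.8 to 19.2.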

How the results depend on the processing

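No gene past the threshold in PGCC against parental cells changed sign under the 20 alternatives, of which the use of replicates 4 and 5 alone was chosen after seeing the data. Of the 27 calls without LCL521, 19 held under every alternative, and of the 26 calls with LCL521, 22 did. Leaving out 1 replicate gave 24 to 27 calls without LCL521, 24 to 26 with it, and 0 to 0 for LCL521 in parental cells, in PGCC and in the interaction. With library totals in place of TMM, the median log2 fold change of the 40 genes was 0.22, where the median of all genes moved to 0.07. With gene length correction these medians were 0.03 and −0.13. Pairing mattered for LCL521. With the replicate block 2 genes were called in parental cells and 1 in PGCC, with the block and gene length correction again 2 and 1, and with DESeq2 and the block 1 and 2. With replicates 4 and 5 left out under the block, 1 gene was called in PGCC. In PGCC against parental cells the block added PPT2 and left the other calls, and library totals added LAMP1 and lost FUCA1. With no filter on low counts FUCA1, ARSA and MCOLN3 lost their calls, and with gene length correction and no block GLB1 and ARSA did. The same correction added lower calls for IDS (−0.31, adjusted p = 0.00598), CTSD (−0.22, adjusted p = 0.0145) and PPT2 (−0.38, adjusted p = 0.0237). The cause of these shifts was not tested. Of the 8 genes not tested, CTSS reached 32 counts in a library and the others stayed under 20, and whether depth or overlapping genes set the counts of HEXA, CD68 and CLN3 was not tested.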
